A study of Mus musculus with 2 samples.

Results

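The 10 genes that shape the matrix around cells and were followed here in denervated mouse muscle are those of the matricellular proteins Spp1, Postn, Tnc, Sparc, Thbs1, Thbs2, Thbs4, Fn1 and Ctgf, and the cross-linking enzyme Lox. They were chosen by gene name, with earlier results of these data known. A probe belonged when the array design, or the current symbol of its transcript in a RefSeq table, gave one of these names. This gave 10 genes and 18 probes, of 21594 named genes and 41174 probes on the array. Fn1 is more often classed as a structural matrix protein, and Ctgf now carries the symbol Ccn2.

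Messenger RNA was measured in the gastrocnemius, a calf muscle made mostly of fast fibres, of male wild-type C57BL/6 mice. The denervated group had lost its nerve supply for 14 days, from 7 weeks of age, and the mice of both groups were 9 weeks old at sampling. The labels of the other group disagree on the word sham, so whether the control mice were operated on is not settled. Total RNA of 6 mice per group was pooled onto 1 array per group. No difference below therefore has a replicate check or a p-value, and each describes these 2 pools of whole muscle. In such bulk RNA, fewer cells of a type and less RNA per cell cannot be told apart.

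Matricellular proteins are secreted into the matrix but mainly signal to cells instead of bearing load. They bind integrins and other surface receptors, growth factors and collagen, and are typically scarce in resting adult tissue and made during development and repair. Tenascin-C, periostin and osteopontin are known from regenerating and fibrotic muscle. Lysyl oxidase oxidises lysines of collagen and elastin so that fibres become cross-linked.

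Signals are given scaled, with the 75th percentile of each array's probes set to 100. Differences are log2, denervated minus control, followed by ± the error that the scanner software gives each spot, combined over the arrays, which is technical only. A threshold of 2-fold was used, and a measured probe is one that cleared background by the software's call, without saturation, on each array. Of the probes on the array, 70.9% (control) and 68.4% (denervated) were well above background. The muscle fibre markers were all present, 10 of 10, with a summed scaled signal of 409387 (control) and 318089 (denervated). Scaling to spike-in control RNA in place of the 75th percentile moved every gene up by 0.40, so a difference between -0.40 and 0 has no settled direction.

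Of the 10 members, 4 were higher after denervation by 2-fold or more, namely Spp1, Lox, Tnc and Postn, and none was lower by that much. Of all 15433 measured genes, 6.98% passed 2-fold upward and 8.51% downward. The members' median was 0.63, against -0.11 over all measured genes. Above 0 lay 9 of the 10 members, Sparc only at 0.02, and 6614 of all 15433 measured genes. Because the members were chosen with earlier results of these data known, setting them beside all genes is a description and no test. With spike-in scaling 6 members passed 2-fold upward, with Thbs1 and Thbs2 added, but so did 14.5% of all genes, while 4.12% then passed it downward. The share of higher genes among all those past 2-fold moved from 45% to 77.9% between these scalings. All 10 genes had a measured probe. Of the 18 probes, 16 were measured on both arrays, 1 Tnc probe was above background in the denervated pool only, and 1 Thbs1 probe in neither.

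**Figure D1:**
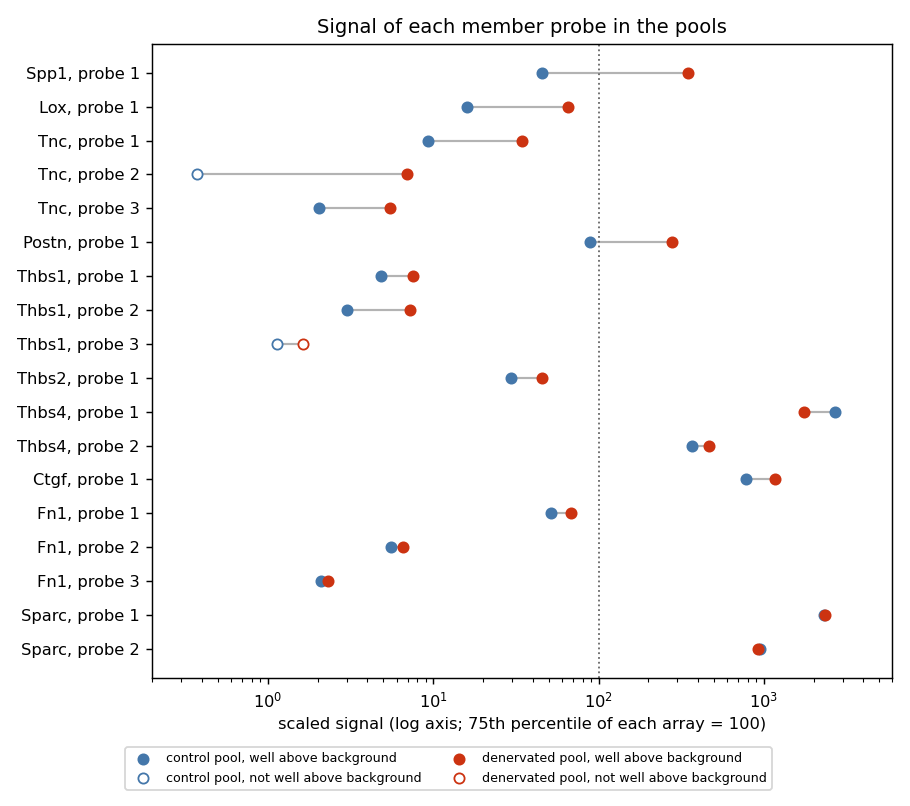
Scaled signal of each of the 18 probes in the control pool (blue) and the denervated pool (red) on a log axis, with open circles for signals not well above background and a dotted line at the 75th percentile. Probe 1 of a gene gives the gene's value. Spp1, Lox, Tnc and Postn have the widest gaps among probes measured on both arrays, the Sparc points nearly coincide, and Thbs4 probe 1 has the control pool clearly on the right.

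Spp1 encodes osteopontin, an acidic phosphoprotein that binds alpha-v integrins and CD44 and is made by macrophages, by osteoblasts and by muscle precursor cells. Its scaled signal was 45.2 in the control and 348 in the denervated muscle. That is a 7.71-fold difference (2.95 ± 0.20), the highest of the members and rank 85 from the top among the 15433 measured genes. The Spp1 probe (transcript NM_009263, chr5:104681071-104681130 on mm8) was printed 10 times on each array. Its 8 usable control spots ran from 43.1 through a median of 44.9 to 48.4, and the 10 denervated spots from 338 through 350 to 363. The spots of the pools did not overlap, and the difference had an SD of 0.05 over the 8 spots usable on both arrays. These spots repeat the measurement on one RNA pool and say nothing of the spread between mice.

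**Figure D2:**
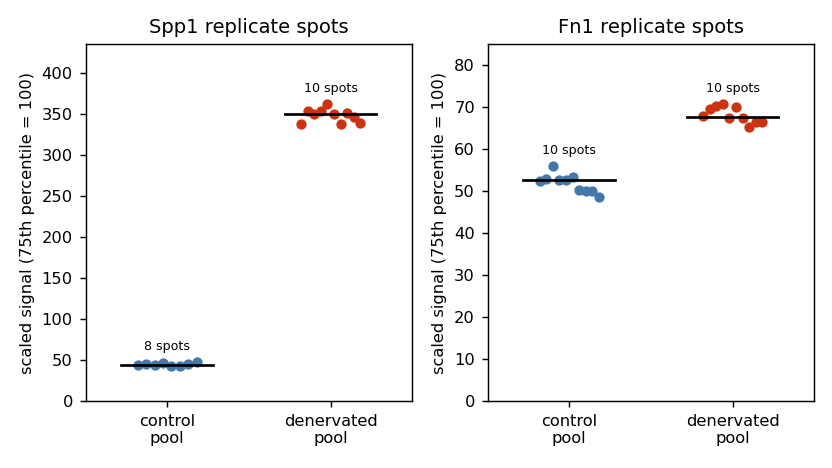
Scaled signal (linear axis from 0) of each usable replicate spot of the Spp1 and Fn1 probes in the control pool (blue) and the denervated pool (red), with a black line at the median. The Spp1 medians are 44.9 and 350 and the Fn1 medians 52.6 and 67.5, and the spots of the pools do not overlap for either gene.

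Lox had a scaled signal of 16.1 in the control and 65.4 in the denervated muscle, a 4.07-fold difference (2.03 ± 0.21, rank 241 from the top; NM_010728, chr18:52641882-52641941 on mm8). It has 1 probe, and under normexp background correction its difference was 1.55.

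Tnc encodes tenascin-C, a multi-armed glycoprotein that loosens cell adhesion to fibronectin and surrounds regenerating fibres and tendon junctions. By its gene-value probe, at the 3′-most position (NM_011607, chr4:63446699-63446759 on mm8), the scaled signal was 9.24 in control and 34.3 in denervated muscle. The difference was 3.72-fold (1.89 ± 0.21, rank 290), or 1.2 on the log2 scale under normexp correction. A second probe, 52876 bases upstream in the gene and spanning 764 bases of genome, as a 60-base probe does across a splice junction, gave 2.03 and 5.46 (1.43 ± 0.35). The remaining probe, named for the cDNA AK048765 and 24506 bases upstream, was not well above background in the control pool and stood at 6.98 in the denervated pool, where it was at least 3.79-fold higher. That bound sets its signal against the lowest signal well above background on the control array, 1.84. All 3 Tnc probes were thus higher in the denervated pool, at positions spread along the gene.

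Postn encodes periostin, a fasciclin-domain protein that binds collagen and alpha-v integrins and helps Bmp1 activate Lox. Its scaled signal was 88.2 in control and 278 in denervated muscle, a 3.15-fold difference (1.66 ± 0.20, rank 388; NM_015784, chr3:54478490-54478549 on mm8). Under normexp correction its difference was 1.58.

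RefSeq start-site windows (GRCm38.p6) were held for 6 of the 10 members: Spp1, Postn, Tnc, Sparc, Thbs2 and Thbs4. The 250 bases before the start of the gene record are shown for the 3 members past 2-fold that have a window, and for Thbs4, whose gene value went the other way. Capitals mark matches, on either strand, to the SMAD element CAGAC, the AP-1 site TGANTCA, the TEAD motif GGAATG, the CArG box or the Runx core TGTGGT. The last was added after the values were seen.
Spp1 (chr5:104434861-104435110, plus strand): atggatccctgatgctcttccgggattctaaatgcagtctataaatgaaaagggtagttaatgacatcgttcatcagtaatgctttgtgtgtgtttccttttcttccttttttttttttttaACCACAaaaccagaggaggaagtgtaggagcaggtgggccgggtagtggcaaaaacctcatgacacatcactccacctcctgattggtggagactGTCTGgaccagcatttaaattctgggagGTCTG
Postn (chr3:54359017-54359266, plus strand): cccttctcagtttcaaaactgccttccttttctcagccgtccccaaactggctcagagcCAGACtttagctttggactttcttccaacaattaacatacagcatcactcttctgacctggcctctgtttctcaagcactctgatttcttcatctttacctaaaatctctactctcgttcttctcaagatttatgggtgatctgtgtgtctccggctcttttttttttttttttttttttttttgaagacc
Tnc (chr4:64047016-64047265, minus strand): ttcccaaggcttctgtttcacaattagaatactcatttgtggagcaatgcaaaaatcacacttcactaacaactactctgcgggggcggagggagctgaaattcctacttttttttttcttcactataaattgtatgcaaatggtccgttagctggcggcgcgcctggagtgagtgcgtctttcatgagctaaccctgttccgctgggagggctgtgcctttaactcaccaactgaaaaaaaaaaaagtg
Thbs4 (chr13:92794819-92795068, minus strand): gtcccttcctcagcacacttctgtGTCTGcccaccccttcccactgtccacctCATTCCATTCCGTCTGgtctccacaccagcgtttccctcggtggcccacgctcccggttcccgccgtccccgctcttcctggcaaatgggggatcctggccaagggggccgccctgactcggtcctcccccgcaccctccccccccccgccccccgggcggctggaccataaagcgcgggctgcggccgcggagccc

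The SMAD element was present in 5 of the 6 windows, all but that of Tnc, and in 42.2% of all 32851 windows of the same length in the table. Spp1 held 2 matches, 33 to 29 and 5 to 1 bases before the start, and Thbs2 and Thbs4 also 2 each. The TEAD motif was found in Thbs4 only (12.6% of all windows), as a pair of matches that share 1 base, and the Runx core in Spp1 only (14% of all windows), 128 to 123 bases before the start. None of the 6 held the AP-1 site (6.75%) or the CArG box (1.47%). The SMAD element thus occurred in members past 2-fold (Spp1, Postn) and in members below it (Sparc, Thbs2, Thbs4). A match of this kind is a description of the sequence.

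Thrombospondins are multimeric calcium-binding glycoproteins. Thbs1 and Thbs2 form trimers that bind CD36 and CD47 and restrain vessel growth, and Thbs1 can activate latent TGF-beta. Thbs4 forms pentamers and sits at muscle attachments. None of the 3 passed 2-fold by its gene value, and Thbs1 and Thbs4 gave different answers by different probes.

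Thbs1 was dim. Its gene-value probe (NM_011580, chr2:117817480-117817539 on mm8) read a scaled 4.82 in control and 7.54 in denervated muscle (0.65 ± 0.26). A probe 3445 bases upstream read 3 and 7.28, which is 2.43-fold (1.28 ± 0.29), and another, 4942 bases upstream, was not well above background on either array. Both measured probes were higher in the denervated pool, 1 of them past 2-fold. Normexp correction, which adds 50 to every intensity against 38 and 80.2 for this probe, brought the gene value to 0.04.

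Thbs2 read 29.4 in control and 45.2 in denervated muscle (0.62 ± 0.21; NM_011581, chr17:14404116-14405379 on mm8, a span across a splice junction). Its difference was 0.41 under normexp correction and 1.02 under spike-in scaling.

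Thbs4 was the only member below 0. Its gene-value probe, the 3′-most (NM_011582, chr13:93852363-93852422 on mm8), read 2700 in control and 1750 in denervated muscle, 1.54-fold lower (-0.62 ± 0.20, or -0.23 with spike-in scaling). The second probe of the same transcript, 3555 bases upstream (chr13:93855918-93855977), read 370 and 465 (0.33 ± 0.20). Both probes were far above background, the intervals of their technical errors do not meet, and the sign of the Thbs4 difference depends on the probe. Which transcripts each probe binds was not tested.

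**Figure D3:**
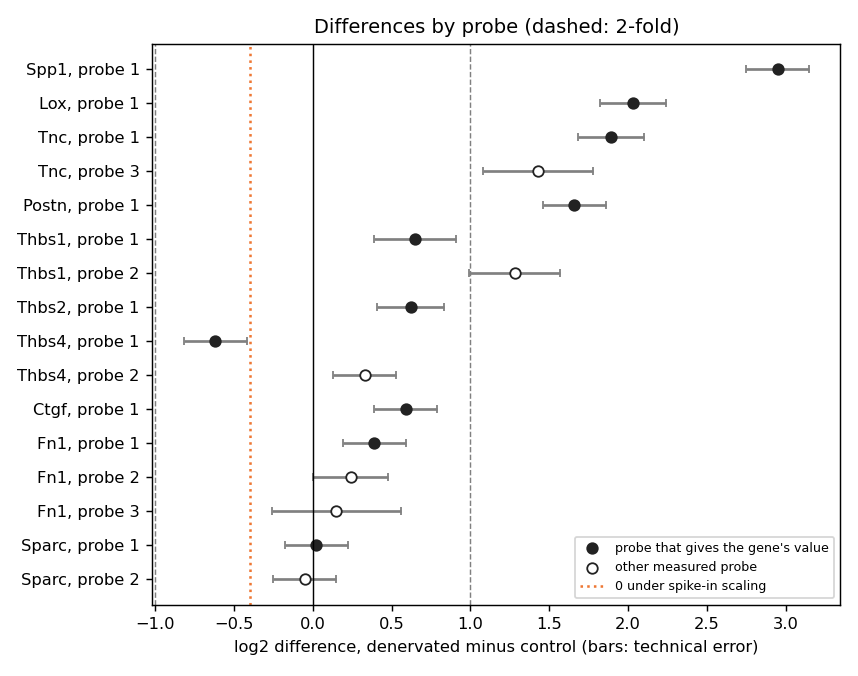
Log2 difference (denervated minus control) of the 16 probes measured on both arrays, with technical error bars, filled for the probe that gives the gene's value. Dashed lines mark 2-fold and the dotted line the place of 0 under spike-in scaling. The Spp1, Lox, Tnc and Postn probes lie right of 2-fold, Thbs1 probe 2 at 1.28 lies just past it, and the Thbs4 probes lie on opposite sides of 0.

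Ctgf encodes connective tissue growth factor, a CCN-family protein that binds integrins, heparan sulfate and TGF-beta and is induced by TGF-beta and by mechanical load. It read 778 in control and 1170 in denervated muscle, 1.5-fold higher (0.59 ± 0.20; NM_010217, chr10:24287891-24287950 on mm8). With spike-in scaling it stood at 0.99, just under 2-fold.

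Fibronectin, from Fn1, is the multidomain protein on which collagen and many matricellular proteins assemble. Its gene-value probe (NM_010233, chr1:71524056-71526293 on mm8) was printed 10 times. Control spots ran from 48.6 through 52.6 to 56.0 and denervated spots from 65.3 through 67.5 to 70.8. The spots did not overlap, and the difference of 0.39 ± 0.20 had an SD of 0.04 over spots. Probes 6705 and 36466 bases upstream gave 0.24 ± 0.24 (5.57 and 6.57) and 0.15 ± 0.41 (2.08 and 2.31). All 3 Fn1 probes lay above 0 and below 2-fold, the last 2 within their technical error of 0.

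Sparc encodes osteonectin, a collagen-binding protein that fibroblasts and endothelial cells secrete and that takes part in fibril assembly. It read 2320 in control and 2360 in denervated muscle (0.02 ± 0.20; NM_009242, chr11:55239370-55242027 on mm8). Its second probe read 952 and 921 (-0.05 ± 0.20), so both probes lay within their technical error of 0. Spike-in scaling put the gene at 0.42.

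Other genes of the same families, partners and pathways were described through 7 lists of 129 genes, of which 116 were measured, 16 higher by 2-fold or more and 7 lower. The counts stand beside 6.98% of all measured genes higher and 8.51% lower, or 14.5% and 4.12% with spike-in scaling. The medians stand beside -0.11 for all measured genes, and the lists received no test. Of the 129 genes, 2 are in more than 1 of the lists and 9 are also in a cell-type list.

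Matricellular relatives went both ways. Of 16 measured, 2 passed 2-fold upward and 3 downward (median 0.17), or 6 and 1 with spike-in scaling. Ccn1, a CCN-family relative of Ctgf, was 5.57-fold higher (189 and 1050, 2.48 ± 0.20), and the lipase inhibitor Angptl4 was also higher (94.7 and 260, 1.46 ± 0.20). The CCN-family member Ccn3 was lower at -1.59 ± 0.26. Sparcl1, the relative of Sparc also called hevin, was lower at -1.06 ± 0.20 (7130 and 3420, with its second probe at -1), and Smoc1 at -1.01 ± 0.37. In the thrombospondin family Thbs3 stood at 0.22 and the pentameric Comp at 0.67, and in the tenascin family Tnxb at -0.28, while Tnr and Tnn were not above background. Igfbp7, a secreted insulin-like growth factor binding protein, was at 0.11. Within the CCN, Sparc and tenascin families, members thus differed from each other in direction or size.

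Lox had 4 relatives measured, none past 2-fold. Loxl1, which cross-links elastin, stood at 0.86 ± 0.20 (201 and 365), Loxl3 at 0.44, Loxl2 at -0.69 and the dim Loxl4 at -0.76 ± 0.37. The protease gene Bmp1, whose product cuts the Lox precursor, was at 0.15, with Fbln5, an elastic fibre protein, at 0.38 and the collagen prolyl hydroxylase gene P4ha2 at -0.64. Of the 15 measured genes in the lysyl oxidase list 1 was 2-fold higher and none lower (median 0.15). That gene was Plod2, which hydroxylates the collagen telopeptide lysines that Lox oxidises, at 8.84 and 25.1 (2.84-fold, with a log2 error of 0.22). With normexp correction no gene of the list passed 2-fold upward, and with spike-in scaling 2 did. Of 9 fibrillar and associated collagens, the substrates of Lox, none passed 2-fold by its gene value (median 0.08). Col1a2 was at 0.02, Col1a1 at 0.08, Col3a1 at 0.63, Col5a2 at 0.70 and Col14a1 at 0.87. Col12a1 stood at 0.41, but at 1.02 by its other probe. With spike-in scaling 3 of the 9 passed 2-fold upward.

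Receptors for the members split as well. Of 23 measured, 2 were 2-fold higher and 2 lower (median -0.01), or 4 and 2 with spike-in scaling. The integrin subunit gene Itgb5, which pairs with alpha-v to bind osteopontin and periostin, was 3.38-fold higher (1700 and 5750, 1.76 ± 0.20). The common beta subunit Itgb1 was higher at 1.11, with probes from 0.93 to 1.26. By the smallest-difference probe only 1 receptor was 2-fold higher. Itgb6 was lower at -2.10 ± 0.20 and Itga4 at -2.06 ± 0.20, each with a second probe in the same direction. The osteopontin receptor Cd44 gave 0.28, with probes from -0.36 to 0.45, and Itgav 0.19, with probes from -0.40 to 0.67. Itgb8 stood at -0.37 by its gene value but at 2.63 by its other probe. The thrombospondin receptors Cd36 and Cd47 stood at -0.43 and 0.21, and calreticulin, from Calr, which mediates thrombospondin signalling at the cell surface, at 0.51.

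In the TGF-beta pathway 6 of 22 measured genes were past 2-fold upward (median 0.55), none downward, and spike-in scaling made the first count 11. The 6 were the ligands Tgfb1 (13.4 and 42.5, 1.67 ± 0.21) and Tgfb3 (1160 and 3180, 1.45 ± 0.20), the receptor Tgfbr1 (1.49 ± 0.20), the signal carrier Smad3 (1.11), the pathway repressor Skil (1.07) and the corepressor Tgif1 (10.6 and 127, 3.58 ± 0.21). Tgfb2 was at -0.37, Smad4 at -0.42 and the inhibitory Smad7 at -0.03.

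Yap and serum response factor genes held both the highest and the lowest difference within the 7 lists. Of 19 measured, 3 passed 2-fold upward and 2 downward (median 0.21), or 3 and 1 with spike-in scaling (median 0.61), when Srf stood at -0.98. The list's median was -0.01 under normexp correction. Ankrd1, a muscle ankyrin repeat gene and Yap target, was 94.3-fold higher (6.56 ± 0.20), with Ccn1 at 2.48 and the factor Tead4 at 1.79. The coactivator gene Mkl1 was lower at -2.30 ± 0.20 and Srf at -1.37, while Yap1 was at -0.03, its paralog Wwtr1 at 0.23 (1.06 by another probe) and the smooth muscle actin gene Acta2 at -0.54. Ctgf, often used as a Yap target beside Ccn1 and Ankrd1, did not pass 2-fold.

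Of 14 measured genes in the list of proteases that can cut the members, 3 were 2-fold higher and none lower (median 0.31). The 14 include Meltf (-0.25), which encodes the iron-binding melanotransferrin and is no protease. Mmp3, which cleaves osteopontin, fibronectin and tenascin-C, was 10.6-fold higher (10.6 and 112, 3.40 ± 0.21). Ctss, abundant in macrophages, was at 1.75 ± 0.20 and the dim prothrombin gene F2 at 1.43 ± 0.23. Mmp2 at 0.01, Mmp9 at 0.37, Adamts1 at 0.01 and the lysosomal Ctsb at 0.55 (-0.21 by another probe) did not pass.

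**Figure D4:**
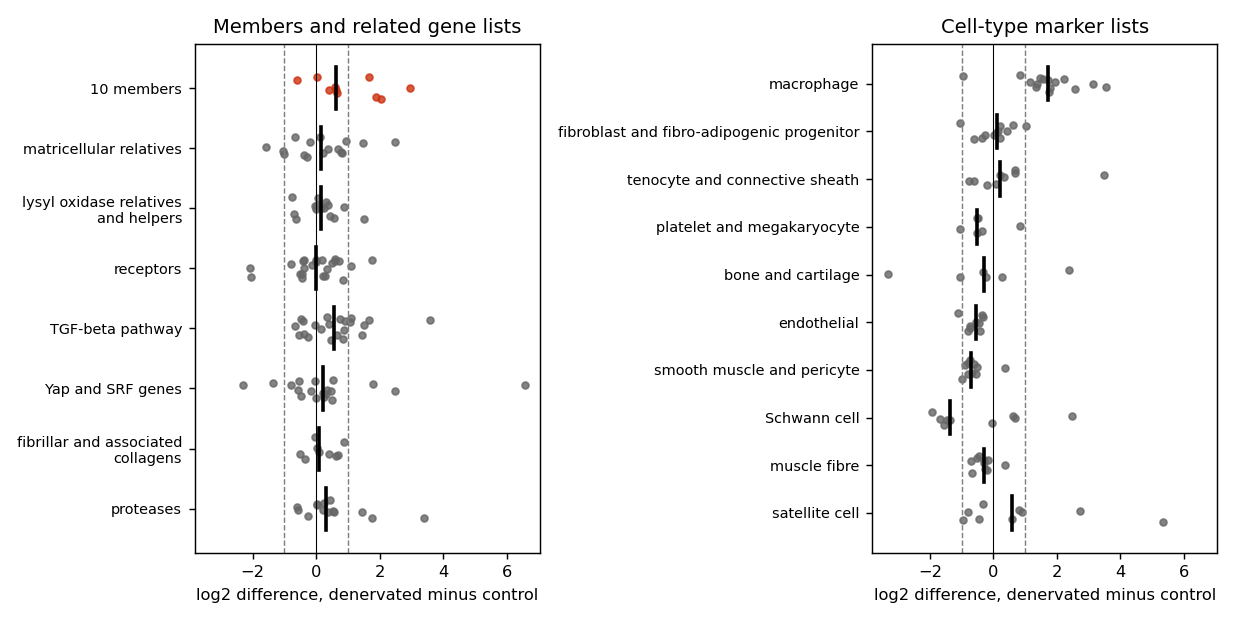
Log2 difference (denervated minus control) of each measured gene, as a point, for the 10 members (red) and the 7 related lists on the left and the 10 cell-type marker lists on the right, with a black bar at each median and dashed lines at 2-fold. Of the lists, the macrophage markers have the highest median, 1.72, and the Schwann cell markers the lowest, -1.38 (the value of Mbp, whose probes differ in sign), while the members' median is 0.63.

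Several cell types of the muscle can make these proteins, and their marker lists are given beside the members. Their counts stand beside the same shares of all measured genes as those of the related lists. Of 15 macrophage markers 13 passed 2-fold upward (median 1.72), and their summed scaled signal was 2104 in control and 6426 in denervated muscle. Cd68 stood at 3.53, Trem2 at 3.12, Lgals3 at 2.56 and Lyz2 at 1.48, against -0.96 for the dim Cx3cr1. Csf1r (1.33) and Fcgr1 (2.21) passed by their gene values but stood at 0.64 and 0.77 by another probe. Spp1, which macrophages make, was higher in the same pool, and the part of these cells in its difference was not tested. Fibroblasts are a main source of Postn, Fn1, Sparc and Lox in connective tissue. Of 12 fibroblast markers, 1 was 2-fold higher (Lum, 1.03) and 1 lower (Clec3b, -1.04), with a median of 0.12 and sums of 41712 and 40036, and Pdgfra was at 0.22, Dcn at 0.15 and Gsn at -0.61. Under spike-in scaling 2 fibroblast markers passed upward and none downward. The part of fibroblast number in the higher Lox and Postn signals was not tested.

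Tenocyte markers, from cells that make Tnc and Thbs4, had 1 of 9 past 2-fold. It was the tendon transcription factor Scx, 11.2-fold higher (617 and 6880, 3.48 ± 0.20), while Tnmd (-0.76), Chad (0.69), Mkx (-0.21) and Fmod (0.09) did not pass. The list's sums, Scx included, were 1937 and 8409, and under spike-in scaling 3 of the 9 passed 2-fold upward. Satellite cell and myoblast markers, from cells that can make Spp1, had 2 of 9 past 2-fold upward, Myog (5.34) and Myod1 (2.71), or 4 with spike-in scaling. Cdh15 was at 0.89, Itga7 at 0.82, Sdc4 at 0.59, Calcr at -0.34, Vcam1 at -0.44, Pax7 at -0.80 and Chodl at -0.96. Which cells the Myog and Myod1 signals came from was not tested. Of 6 measured platelet markers, relevant to Thbs1 and Sparc, none was 2-fold higher and 1 was lower, the dim Gp1ba (-1.05 ± 0.37), with Pf4 at 0.83, Gp9 at -0.53 and Gp1bb at -0.50. Under spike-in scaling 1 platelet marker, Pf4, passed upward (1.23) and none downward. Bone markers were mostly dim, and Bglap, Ibsp and Dmp1 were not above background on either array. Of 6 measured, Runx2 was higher (3.89 and 20.4, 2.39 ± 0.25), and Phex (-3.33) and Alpl (-1.04, or -0.64 with spike-in scaling) were lower. Col2a1 was at 0.27. Endothelial markers, from cells that make Sparc, were below 0 in 9 of 9 (median -0.56), as were 8819 of all 15433 measured genes. Kdr was at -1.12, Sox18 at -0.79, Emcn at -0.75, Flt1 at -0.73 and Cdh5 at -0.56. With spike-in scaling the endothelial median was -0.16, and Tek (0.06) and Cldn5 (0.05) lay above 0. Smooth muscle and pericyte markers had a median of -0.71 with none of 10 past 2-fold, from Lmod1 at -0.99, Kcnj8 at -0.91 and Tagln at -0.81 to Des at 0.35. Des is also in the muscle fibre list. Acta2, with scaled signals of 38400 and 26300, was about as bright as the fibre marker Ckm (39000 and 23700), and which transcripts its probes bind was not tested. Of 9 Schwann cell markers 5 were past 2-fold downward, among them Mal (-1.95) and Pmp22 (-1.55), 1 was past it upward (Ngfr, 2.47, but -0.16 by its other probe), and S100b was at -0.04. The 5 include Mbp (-1.38), the median gene of the list, whose 3 probes ran from -1.38 to 1.87. With spike-in scaling 4 Schwann cell markers passed downward and 3 upward. Muscle fibre markers had a median of -0.30, or 0.10 with spike-in scaling, and none of 10 passed 2-fold, with Ckm at -0.72, Actn3 at -0.66, Acta1 at -0.53 and Tnnt3 at -0.21. The part of any of these lists in the members' differences was not tested.

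**Figure D5:**
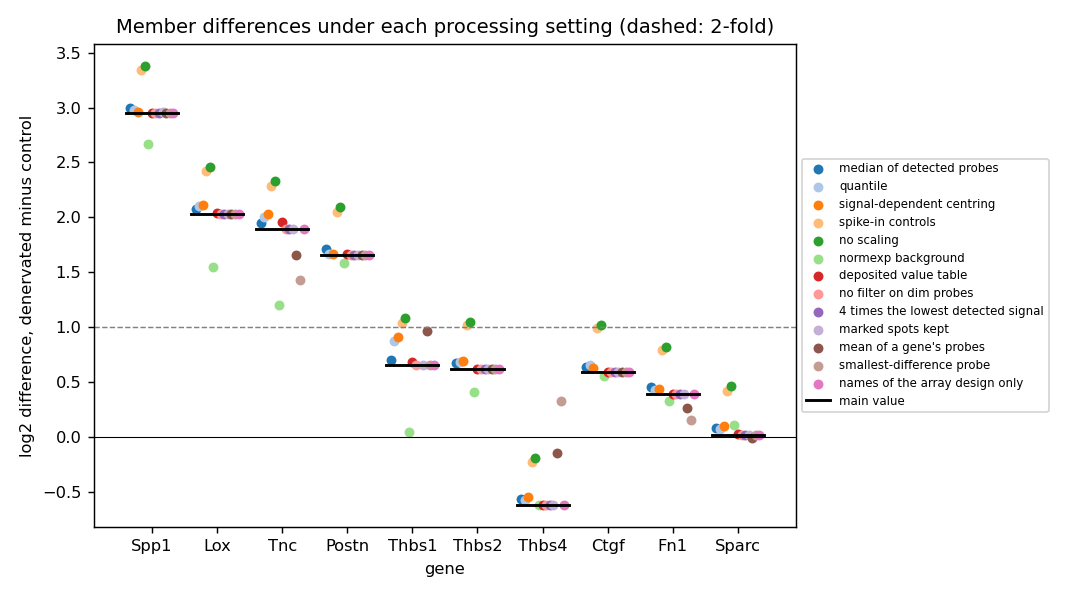
Log2 difference (denervated minus control) of each member under the main processing (black bar) and 13 alternatives (coloured points), with the dashed line at 2-fold. Spp1, Lox, Tnc and Postn stay above 2-fold under all of them, Thbs1 and Thbs2 cross it with spike-in scaling or no scaling, Ctgf without scaling, and Thbs4 lies above 0 with the smallest-difference probe alone. Settings for probe choice and dim probes could not move Spp1, Lox and Postn, which have 1 probe each.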

How the data were processed

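RNA of 6 mice per group was pooled, and 1.65 µg of Cy3-labelled cRNA was hybridised to 1 one-colour Agilent array per group, per the labels and the series' design text. The authors deposited scanner files whose spot intensity values came from Agilent Feature Extraction, version 9.5.3.1 per the file headers. By those headers, background and spatial trend had been removed on every array, with a preset multiplicative error of 10% and no scaling between arrays. The deposited value table holds a score, found here to be the intensity over the array's 75th percentile times 100, rounded (column medians 10 and 9). It served as an alternative. Its direction and scale were settled by this match, and it was not centred by gene.

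Here spots with the software's non-uniformity or outlier marks were dropped (87 control, 81 denervated), log2 intensities of a probe's spots were averaged, and each array was scaled to its 75th percentile over 41174 probes (788 and 1063). A gene took its measured probe with the highest mean signal. The median technical error was 0.20. A probe above background on 1 array received a bound. Of the probes, 23366 were named through a RefSeq table (GRCm38.p6, names only), and the others kept the design's name. Probe positions are on mm8, and 85.4% span 60 bases. With 1 array per group no test was run, and the number of arrays limits the precision. Analyses used Python 3.11.15, pandas 2.3.3 and statsmodels 0.14.6, with limma 3.58.1 under R 4.3.3 for normexp, and were tested on simulated data.

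The genes named are the members, the 3 largest differences and 2 brightest genes of each list, and some others chosen after their values were seen, leaving out a few genes that are not reported here. The members and lists were chosen with earlier results of these data known. Alternatives covered scaling, background, dim probes, marked spots, probe choice, names and the deposited table.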

Additional observations from a re-analysis of the deposited data

How the results depend on the processing

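Across 13 alternatives for the 10 members, 97 of 129 values moved by less than the technical error, 32 by more, and no member past 2-fold changed sign. Thbs1 had no value with the stricter dim filter. Spp1 ranged from 2.67 to 3.38, Lox from 1.55 to 2.46, Tnc from 1.2 to 2.33 and Postn from 1.58 to 2.09, and each passed 2-fold under all 13. For genes with 1 probe (Spp1, Lox, Postn, Thbs2 and Ctgf), the settings for probe choice and dim probes could not move the value. The 97 values include these, and they add no support. Thbs4 ranged from -0.62 to 0.33, with -0.15 for the mean of its probes and 0.33 for the smallest-difference probe. Without scaling 7 members were at least 2-fold higher. Over all genes, 2239 were at least 2-fold higher and 636 lower with spike-in scaling, 2386 and 597 without scaling, and 2520 lower with no filter on dim probes, when 21593 genes entered. In the related lists 31 genes were at least 2-fold higher and 4 lower with spike-in scaling, and 34 and 4 without scaling. Of the 273 values of single lists 38 moved, and the 3 matricellular relatives below 2-fold became 1 under 6 alternatives. Dim probes (Thbs1, the upstream Tnc and Fn1 probes) had the widest technical errors. No paired analysis was possible because each group has 1 array.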

Other observations

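Several probes outside the naming rule lie at the members or are described as theirs, and they were picked out after their values were seen. A probe that the array describes as tenascin C but names by an Ensembl transcript (chr4:63471025-63471084 on mm8) was not above background in the control pool and read 9.04 in the denervated pool, at least 4.9-fold higher. A probe for the cDNA AK048833, placed between the Tnc probes, was also above background in the denervated pool only, at 2.38, with a bound of 1.29-fold. The probes AK031717 and 8030451A03Rik, also between the Tnc probes, and AK014660, described as Ctgf, were not above background on either array. By their coordinates AK031717, 8030451A03Rik and AK014660 lie on the strand opposite to that of the member's own probes. The probe described as tenascin C and that for AK048833 lie on the same strand as the Tnc probes. A630052E07Rik, a name that the RefSeq table lists as a synonym of Postn, has a probe upstream of the Postn probe that read 2.42 and 2.93 (0.28 ± 0.37), unlike the Postn probe at 1.66. Both readings were close to the lowest signals well above background, 1.84 (control) and 1.68 (denervated), so the A630052E07Rik probe is a weak comparison. A probe for BC010335, inside the span of the Fn1 probes, read 20.7 and 24.6 (0.25 ± 0.21), near the values of the Fn1 probes.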
